A study of Mus musculus with 2 samples.

Results

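Imprinted genes are expressed from one parental allele, and many of them act in opposite directions on growth. Most maternally expressed members restrain growth or clear growth factor, and several paternally expressed ones promote it. In blood-forming tissue, Cdkn1c and the H19, Igf2 and Meg3 regions are known for their part in keeping stem cells quiescent. Arrays do not separate the parental alleles, so every value below is the sum of both.

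The 10 imprinted growth regulators described here are Cdkn1c, Igf2r, H19, Meg3 and Grb10, which are maternally expressed in most mouse tissues, and Igf2, Dlk1, Peg3, Mest and Plagl1, which are paternally expressed. They were selected on the processed signals and background flags of their probes on these arrays, so their values are given as a description. All probes that carry one of these gene names in the scanner files were taken, with the file's older name Gtl2 standing for Meg3. That gave 22 probes in 31 spots, of 41174 probes for 27620 named genes. Only 4 of the 10 genes, Cdkn1c, Igf2r, H19 and Plagl1, had a probe measured on both arrays, that is, well above background and not saturated on each, against 16574 genes in all.

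The cells, called M/E, are mouse bone marrow cells made immortal by MLL/ENL, a fusion gene of leukaemia. Both groups share the genotype Mef2c del/-, which leaves no functional MEF2C per the labels, and both were grown in medium with SCF at 100 ng/ml and with GM-CSF, IL6 and IL3 at 10 ng/ml. One group carried the retroviral vector MYs-pMef2cASR, which encodes MEF2C-ASR, a constitutively active MEF2C mutated in binding to histone deacetylases, and the other carried the empty vector MYs-iPAC, with puromycin selection in each. RNA from harvests at 6, 24 and 48 h was pooled, so each group is 1 array on the same slide. With 1 array per group there was no test, "higher" and "lower" describe these arrays, and the number of arrays limits the precision. The promoter of the vectors and the number of clones are not given in the labels.

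Mef2c itself had a signal of 1969 on the MEF2C-ASR array and 795 on the empty vector array with 1 probe, and its other probe was well above background on neither. Whether these probes lie in the deleted part of the gene was not tested. On the MEF2C-ASR array 67.5% of 43379 spots were well above background, against 60.1% on the empty vector array, and the lowest signal so marked was 20.0 against 38.3. A dim transcript could therefore pass on the MEF2C-ASR array at a signal that did not pass on the other. All 10 marrow myeloid markers were measured, among them Ptprc, Spi1 and Mpo. Their summed signal was 407445 with MEF2C-ASR and 243547 with empty vector. Of 10 stromal markers 4 were measured, and Dcn, Pdgfra and Lepr were well above background on neither array.

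The promoter of Igf2r is shown because Igf2r was past 2-fold and has an entry in the RefSeq promoter table. The window lies at chr17:12769657-12769956 of GRCm38.p6 on the minus strand, from 250 bases before to 50 bases after the transcript start. CG dinucleotides, the places of DNA methylation, are in capitals.
Igf2r promoter: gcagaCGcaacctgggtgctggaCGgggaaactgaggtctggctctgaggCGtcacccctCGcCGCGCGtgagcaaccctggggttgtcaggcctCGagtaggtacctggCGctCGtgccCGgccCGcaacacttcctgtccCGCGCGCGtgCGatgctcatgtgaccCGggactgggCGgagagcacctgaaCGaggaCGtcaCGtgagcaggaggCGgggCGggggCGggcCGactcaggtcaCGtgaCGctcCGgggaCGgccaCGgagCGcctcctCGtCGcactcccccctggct
It holds 34 CG dinucleotides at a GC content of 70.7%, and 93.0% of the 32851 windows in the table hold this many or fewer. Windows of 8 members were in the table, 15 in all, with 1 to 45 CG dinucleotides, and 12 of them exceeded the median of 7. Cdkn1c and H19 had no window, so the motif searches below do not cover them. Several windows can belong to the same gene, and some of those of Mest overlap. Grb10 had the window with 45 and Plagl1 one with 26. The consensus of MEF2, the family of factors that MEF2C belongs to, was searched on both strands and was in none of the 15 windows, against 3.19% of all windows. The sequence GGGGCCCC, which PLAGL1 binds and which reads the same on both strands, was in 1 of the 15, in Peg3, against 1.08% of all windows. Such a match or its lack describes the letters of the window only.

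Cdkn1c and Igf2r were the members that stood apart, and both were lower with MEF2C-ASR. Cdkn1c encodes p57, a CIP/KIP inhibitor that binds cyclin-CDK complexes and holds cells out of division. Its probe, which the file ties to NM_009876 and places at chr7:139886128-139886187, had a signal of 159.7 on the MEF2C-ASR array and 961 on the empty vector array. After each array was scaled to its 75th percentile the difference was -2.55 on the log2 scale, 5.87-fold lower with MEF2C-ASR. The software's own error of these signals was 16.5 with MEF2C-ASR and 96.4 with empty vector, which gives the difference an error of 0.208. Only 22 of 16574 measured genes (0.133%) were at least as low as this, Cdkn1c included.

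Igf2r encodes the cation-independent mannose 6-phosphate receptor, which sorts lysosomal enzymes and takes up and degrades IGF2. The Igf2r probe, tied to NM_010515 and placed at chr17:11399590-11399648, had a signal of 1713 with MEF2C-ASR and 4440.1 with empty vector. It was 2.53-fold lower with MEF2C-ASR, a difference of -1.34 with an error of 0.204 from the software. Of the measured genes 164 (0.990%), Igf2r included, were at least as low. The spread of 151 probes printed 10 times gives a difference of 1 spot a spotting error of 0.183 at signals of 100 to 1000, where Cdkn1c lies, and of 0.0588 over 1000, where Igf2r lies. Both differences exceeded these errors, which leave out the spread between cultures, RNA pools and labelling. Each gene rests on 1 probe. No source used here names the genome build of these coordinates, so exon and UTR were not assigned.

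In bulk RNA, fewer cells of a type and less RNA per cell cannot be told apart. Stromal markers moved in both directions beside these values. Lum had a signal of 18.4 with MEF2C-ASR and 225 with empty vector, and Pdgfrb had 23.4 with MEF2C-ASR and 83.8 with empty vector. Thy1, by contrast, had 4095 with MEF2C-ASR and 290.1 with empty vector, so that the summed stromal signal was 4494 with MEF2C-ASR and 926 with empty vector. Marrow myeloid markers lay on one side, with all 10 above 0 and a median of 0.67, or 9 of 10 with a median of 0.52 with spike-in scaling. Csf1r, the receptor for the macrophage growth factor, was 3.08-fold higher and Mpo, a granule peroxidase, 2.15-fold higher with MEF2C-ASR, and with spike-in scaling 1 marker rather than 2 was past 2-fold. The part of these cells and of other cell types in the Cdkn1c and Igf2r values was not tested.

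**Figure D1:**
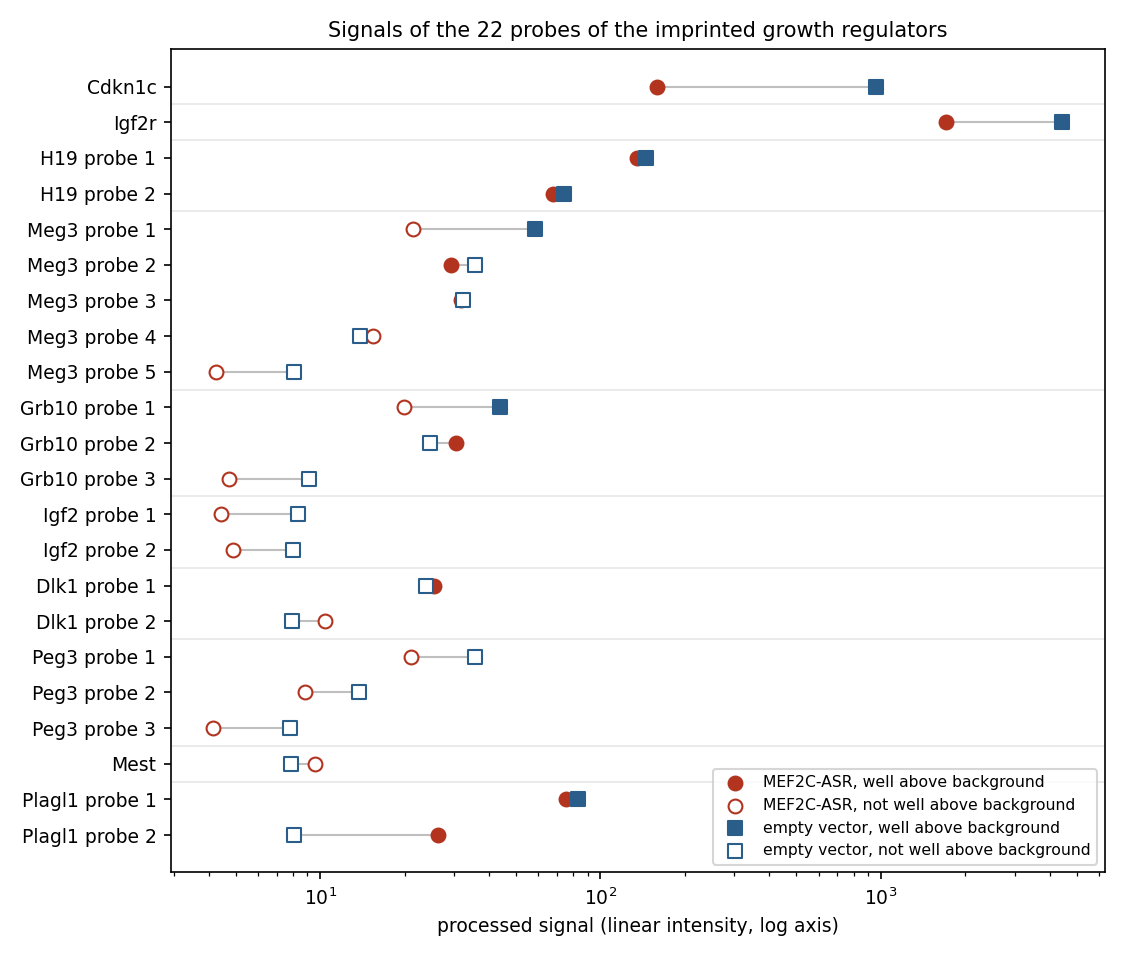
Processed signal of each probe on the MEF2C-ASR array (circles) and the empty vector array (squares), on a log axis. Filled symbols were well above background, and probes of a gene are numbered by their signal on the empty vector array. Cdkn1c and Igf2r are the genes with well-measured symbols far apart, and most probes of the other genes are open on at least 1 array.

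H19 and Plagl1 were the other members measured on both arrays, and both were nearly level. H19 is a long noncoding RNA that shares enhancers with Igf2. Its first probe had a signal of 135 with MEF2C-ASR and 146 with empty vector, and its second had 67.9 with MEF2C-ASR and 74.4 with empty vector. The probes differed by -0.08 and -0.10 on the log2 scale, each less than the software's error of 0.223 and 0.268. Plagl1 encodes ZAC1, a zinc finger factor that acts on several imprinted genes. Its measured probe had 75.6 with MEF2C-ASR and 83.0 with empty vector, a difference of -0.10 with an error of 0.259. A second Plagl1 probe had 26.4 with MEF2C-ASR, well above background, against 8.07 with empty vector, not well above it, and it gave no fold because its bright level did not reach the lowest level so marked on the empty vector array. Neither Plagl1 probe therefore gives a direction.

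Meg3, Grb10 and Dlk1 were near the background, with each probe well above it on 1 array at most. Meg3 is a long noncoding RNA from the maternal chromosome of the region that also holds Dlk1. One of its 5 probes had a signal of 21.5 with MEF2C-ASR, not well above background, against 58.4 with empty vector, 2.65-fold lower with MEF2C-ASR. A bound for such a probe sets the bright level against the dim probe's own level. Where it is higher, the lowest level that counted as well above background on the dim array is used instead. For this Meg3 probe its own level was higher. The 2.65-fold is thus its observed difference, with an error of 0.407 from the software on the log2 scale. Across all genes well above background on the empty vector array alone, 97% (163 of 168) had a bound of at least 2-fold, so passing it says little. With the higher of both arrays' floors used on each, the Meg3 bound was -0.61 on the log2 scale, under 2-fold. Another pair of Meg3 probes had 31.7 and 29.4 with MEF2C-ASR, against 32.4 and 35.6 with empty vector, both well above background on the MEF2C-ASR array alone. The remaining pair had 4.26 and 15.4 with MEF2C-ASR, against 8.06 and 13.8 with empty vector, well above background on neither. The Meg3 probes thus give no common direction.

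Grb10 encodes an adaptor that dampens signalling from the insulin and IGF1 receptors. A probe of Grb10 had 19.9 with MEF2C-ASR, not well above background, against 43.9 with empty vector, at least 2.14-fold lower with MEF2C-ASR. That bound was -0.20 on the log2 scale with the common floor. Another Grb10 probe had 30.5 with MEF2C-ASR and 24.7 with empty vector and was well above background on the MEF2C-ASR array alone, and the last had 4.74 with MEF2C-ASR and 9.12 with empty vector. The Grb10 probes likewise give no common direction. The difference of the probe with 30.5 was 0.34, within the software's error of 0.528. Dlk1, a membrane protein related to Notch ligands, had 25.4 with MEF2C-ASR, well above background, against 23.9 with empty vector, not so, and 10.4 against 7.91 with empty vector on its other probe. Of the 7 member probes well above background on 1 array alone, 5 were so with MEF2C-ASR and 2 with empty vector. Across all spots the share well above background was also larger with MEF2C-ASR, at 67.5% against 60.1%, so this count says little about the members. By unscaled signal 3 of the 7 were brighter on the MEF2C-ASR array. After scaling, the Meg3 probe with 31.7 on that array was level, at 0.005.

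Igf2, Peg3 and Mest were well above background on neither array. Igf2, the fetal growth factor that IGF2R clears, has a probe printed 10 times, of which 7 spots were kept. These spots ranged from 3.98 to 7.68 with a median of 4.26 on the MEF2C-ASR array and from 7.57 to 8.53 with a median of 7.94 on the empty vector array. Negative control spots had medians of 4.31 with MEF2C-ASR and 8.17 with empty vector, so Igf2 lay at the level of the negative controls on both. The other Igf2 probe had 4.43 with MEF2C-ASR and 8.34 with empty vector. Peg3, a zinc finger protein, had 4.16, 8.85 and 21.1 over its 3 probes with MEF2C-ASR, against 7.83, 13.8 and 35.8 with empty vector. Mest, a protein of the hydrolase fold, had 9.55 with MEF2C-ASR and 7.87 with empty vector. No fold is given for these genes, since both arrays were below the level that counts as measured.

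Counted together, 2 of the 4 measured members were at least 2-fold lower and 0 were higher, and these values took part in the choice of members. Over all measured genes, 316 (1.91%) were at least 2-fold lower and 289 (1.74%) at least 2-fold higher with MEF2C-ASR. The median difference was -0.72 over the 4 members and -0.03 over all 16574 genes. All 4 members were below 0, as were 9146 of all genes. The 3 maternally expressed members that were measured had a median of -1.34, which was -0.56 with all probes kept and -1.95 with brighter probes alone, and Plagl1 was the only paternally expressed one measured. Scaling by spike-in spots gave 439 genes lower and 210 higher, in place of 316 and 289, and put the median of all genes at -0.18.

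**Figure D2:**
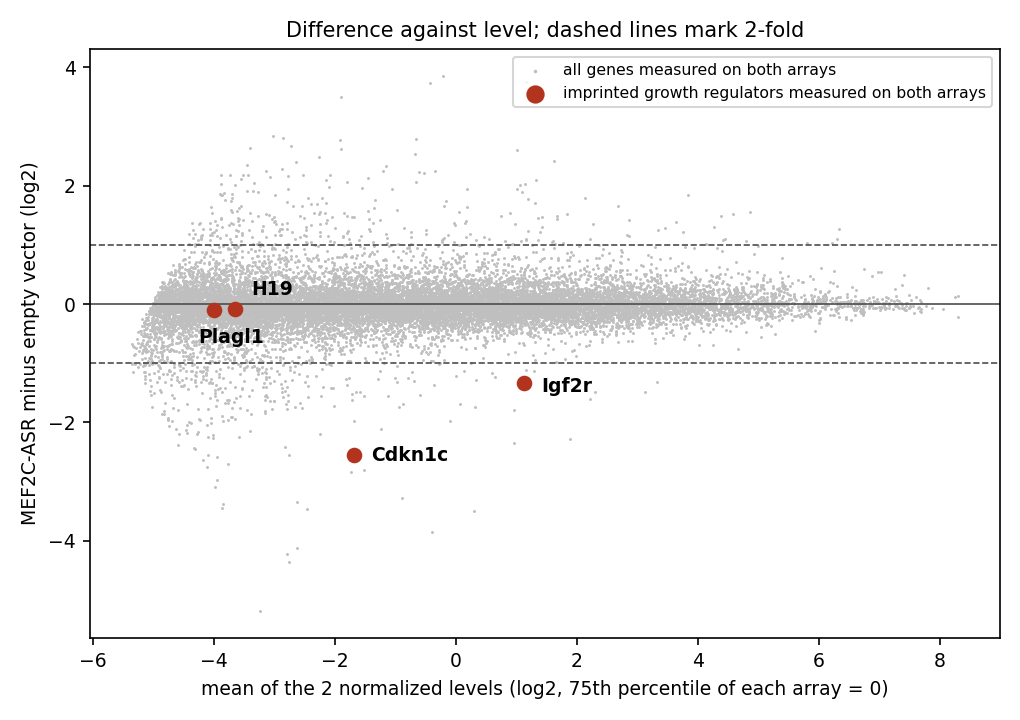
Difference MEF2C-ASR minus empty vector (log2, vertical) against the mean of both normalized levels (log2, horizontal) for 16574 genes measured on both arrays, with the 4 measured members in red. Cdkn1c (-2.55) and Igf2r (-1.34) lie below the lower 2-fold line, and H19 (-0.09) and Plagl1 (-0.10) lie among the dim genes near 0.

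Averaged over their probes, the genes beside Cdkn1c were within 2-fold or too dim to measure. Cdkn1c sits in a domain whose imprinting depends on Kcnq1ot1, a paternally expressed antisense RNA. Kcnq1ot1 had a signal of 2588 with MEF2C-ASR and 2476 with empty vector, a difference of 0.10. Of 12 neighbours 10 were measured, and none was 2-fold apart by its mean over probes. Their median was -0.09 within a range of -0.52 to 0.10. The lowest was Slc22a18, a membrane transporter of the same domain. Its probes had 463 and 256 with MEF2C-ASR, against 958 and 268 with empty vector. They differed by -1.01, just past 2-fold, and by -0.03, so the difference of the gene came from the brighter probe. Phlda2, which restrains placental growth, had 20.3 with MEF2C-ASR, not well above background, against 44.7 with empty vector. Its bound, here the probe's own difference, was 2.15-fold lower, and it fell under 2-fold with the common floor (-0.22). Ascl2, a basic helix-loop-helix factor, differed by -0.48, at 153 with MEF2C-ASR and 219 with empty vector.

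Beside Igf2r, the antisense RNA Airn, which silences the paternal Igf2r allele in mouse tissues, was dim. One of its 3 probes had 7.96 with MEF2C-ASR, not well above background, against 62.3 with empty vector, a bound of at least 3.04-fold lower with MEF2C-ASR. The software marked its background as an outlier, and without such spots Airn gave no bound. With the common floor it was -0.70 on the log2 scale.

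Around the other members, 3 genes were higher by about 2-fold or more. Lsp1, an actin-binding protein of leukocytes in the stretch that holds Igf2 and H19, had 5216 with MEF2C-ASR and 1329.8 with empty vector, 4.02-fold higher with MEF2C-ASR. The other 3 measured neighbours of Igf2 and H19, Ins2, Mrpl23 and Tnnt3, lay between -0.16 and 0.27. Copg2, a coatomer subunit next to Mest, was higher on all 3 probes, with 281, 4298 and 5423 with MEF2C-ASR, against 179, 2005 and 2478 with empty vector. Its mean difference of 0.996 fell just short of 2-fold. Phactr2, near Plagl1, had 148 with MEF2C-ASR and 68.8 with empty vector, 2.21-fold higher, but scaling by spike-in spots brought it to 0.99. Sf3b5 and Ltv1, which lie closer to Plagl1, both differed by -0.08.

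Other stretches held no gene past 2-fold. Near Dlk1 and Meg3, the noncoding RNAs Rian and Mirg and the deiodinase gene Dio3 were on neither array, while Wars and Wdr25 differed by -0.45 and -0.16. Usp29 and Zim1, beside Peg3, were on neither array. Near Grb10, the neighbours Ddc, Fignl1 and Ikzf1 differed by -0.47, -0.33 and 0.38, and Cep41 near Mest by -0.08 with probes of both signs.

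**Figure D3:**
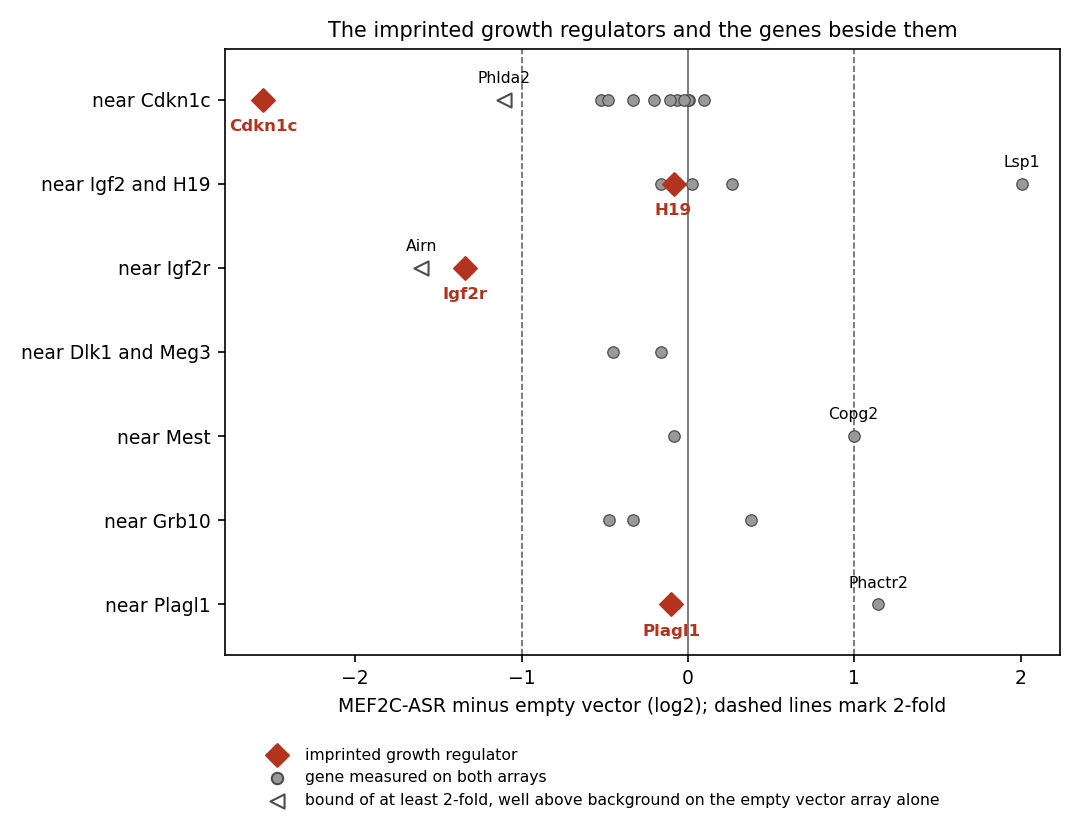
Difference MEF2C-ASR minus empty vector (log2, horizontal) of genes measured on both arrays in each stretch of chromosome, with the measured members as red diamonds and bounds of at least 2-fold as open triangles. Each gene is shown at the mean of its measured probes. Cdkn1c at -2.55 lies apart from its measured neighbours at -0.52 to 0.10, and Lsp1 at 2.01 lies far above H19.

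Imprinted genes outside the set were mostly level. Of 41 other imprinted genes 26 were measured, 24 of them within 2-fold, with a median of 0.01. The 2 past 2-fold were lower and are both listed as paternally expressed, though which allele these cells express was not measured. Peg12, a FRAT family protein, had 841 with MEF2C-ASR and 2889 with empty vector, 3.35-fold lower with MEF2C-ASR. Sfmbt2, a Polycomb group protein, had 215 with MEF2C-ASR and 677 with empty vector on its measured probe, 3.07-fold lower. Over the 12 measured genes listed as paternally expressed the median was -0.07. Over the 14 listed as maternally expressed it was 0.02, or -0.13 with spike-in scaling. Asb4, an ankyrin repeat protein, had 17.8 with MEF2C-ASR, not well above background, against 72.7 with empty vector, a bound of at least 3.55-fold lower, or -0.93 on the log2 scale with the common floor.

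In the IGF pathway, the receptor genes other than Igf2r were level or higher. Of the docking proteins, Irs1 was lower, and Irs4, with 528 on each array, was level at 0.04. Irs1, which docks to the insulin and IGF1 receptors, had 33.0 with MEF2C-ASR and 203 with empty vector, 6.00-fold lower with MEF2C-ASR. Its difference of -2.59 was -1.54 with normexp background correction, and it gave no value with the common floor or with brighter probes alone. Its other probe, with 4.25 against 28.4 with empty vector, was well above background on neither. Igf1r, the receptor through which IGF2 drives growth, was higher on all 4 of its probes with 413, 498, 2355 and 3519 with MEF2C-ASR, against 232, 307, 1767 and 2371 with empty vector, a mean difference of 0.66. Insr and Igf1 differed by 0.07 and -0.09, each with probes of both signs. The 6 measured genes of this list had a median of -0.03. Among binding proteins and their proteases 4 of 11 were measured, with a median of -0.15, and Igfbp7 had 182 with MEF2C-ASR and 496 with empty vector, 2.66-fold lower. Igfbp4 had a difference of -0.22.

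Proteins that act on Igf2 mRNA or in the same fetal programme included Lin28b, which blocks maturation of let-7 microRNAs. Lin28b had 15.3 with MEF2C-ASR, not well above background, against 317 with empty vector, at least 15.5-fold lower with MEF2C-ASR. This bound of -3.95 on the log2 scale was -3.05 with the common floor and -2.27 with normexp background correction. The other 2 Lin28b probes were well above background on neither array. With all probes kept, the mean difference over the 3 probes was -2.55, which is not a bound. The 5 measured genes of that list lay between -0.84 for Igf2bp1 and 0.20 for Lin28a, with a median of -0.12, and Igf2bp3 differed by -0.38 on 3 probes.

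Of the other CDK inhibitors, all 6 were measured, 5 lay above 0 and none was 2-fold apart. Their median was 0.41, or 0.26 with spike-in scaling and 0.19 with the brightest probe of each gene. Cdkn1a, the p21 gene and the closest in kind to Cdkn1c along with Cdkn1b, had 5145 with MEF2C-ASR and 3161 with empty vector, a difference of 0.74. Cdkn1b, the p27 gene, had 1765 and 232 over its measured probes with MEF2C-ASR, against 1548 and 106 with empty vector. Its mean difference of 0.70 joins 0.23 for the brighter probe and 1.17 for the dimmer. Cdkn2c differed by 0.66, Cdkn2d by 0.13 and Cdkn2a by -0.18. Of the 11 cyclins, CDKs and partners that CIP/KIP proteins bind or that turn them over, 10 were below 0. Over all measured genes, 9146 of 16574 were below 0. The median of the 11 was -0.20, and none was 2-fold apart. Ccnd3 and Cdk6 were level, at -0.008 and -0.001, the latter with probes of both signs. Ccne1 had the lowest value at -0.66, then Skp2, which marks p27 for degradation, at -0.55, while Ccnd2 was at 0.09 and Pcna at -0.19.

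**Figure D4:**
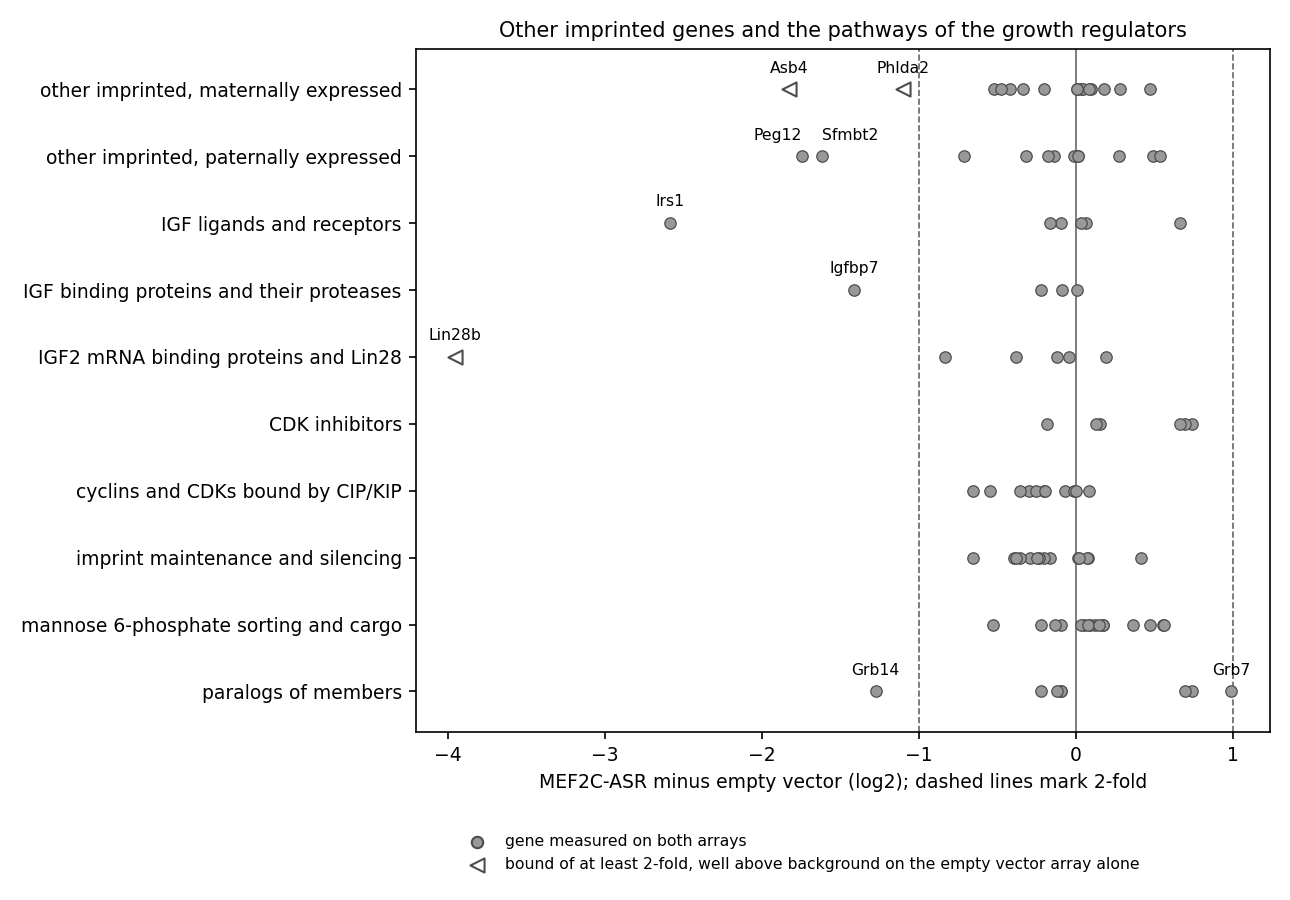
Difference MEF2C-ASR minus empty vector (log2, horizontal) of each measured gene in 10 lists, with bounds of at least 2-fold as open triangles and dashed lines at 2-fold. Irs1, Igfbp7, Grb14, Peg12 and Sfmbt2 are the measured genes beyond the lower line, and no gene lies beyond the upper one.

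Genes that keep imprints or silence chromatin differed by less than 2-fold. Of the 14 measured, 9 were below 0, with a median of -0.22. Zfp57, a zinc finger protein that guards imprints, had 53.8 with MEF2C-ASR and 86.9 with empty vector, a difference of -0.66. Its partner Trim28 differed by -0.39, the maintenance factors Uhrf1 and Dnmt1 by -0.36 and -0.16, and the de novo methyltransferase Dnmt3a by 0.41. Ehmt2, a histone methyltransferase, differed by 0.02. The cargo and partners of IGF2R in lysosomal sorting were all measured, 16 of 16, and none was 2-fold apart, with a median of 0.11 that was -0.05 with spike-in scaling. M6pr, the smaller mannose 6-phosphate receptor, differed by -0.09, with probes of both signs. The lysosomal proteases Ctsb and Ctsd differed by 0.56 and 0.47, and Ctsl by -0.53. Hexa and Man2b1, lysosomal enzymes that break down glycans, differed by 0.04 and 0.17.

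Paralogs of the members gave 1 gene past 2-fold among 8 measured, with a median of -0.09. Grb14, the adaptor closest to Grb10 along with Grb7, had 1006 with MEF2C-ASR and 2495 with empty vector, 2.42-fold lower with MEF2C-ASR. Grb7 had 1425 with MEF2C-ASR and 736 with empty vector, a difference of 0.99 in the other direction. Plagl2 and Dlk2 differed by -0.12 and -0.22.

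The genes whose pair of normalized levels lay nearest to those of Cdkn1c, by Euclidean distance on the log2 scale over the 2 arrays, were Rbp4 at 0.213, Cyp2a4 at 0.283 and Isl2 at 0.406. Rbp4, a retinol carrier, had 139 with MEF2C-ASR and 1016 with empty vector. Cyp2a4 has near-identical copies, so its probe may not be specific. For Igf2r they were Zbtb8a at 0.166, Polr1b at 0.254 and Kank3 at 0.367, and Polr1b, a subunit of RNA polymerase I, had 2037 with MEF2C-ASR and 4592 with empty vector. The distance also depends on how strongly each probe binds, so it ranks likeness on these arrays only.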

How the data were processed

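Total RNA was measured on 1-colour Agilent mouse arrays. Per the file headers, the deposited intensity values are linear processed signals from Feature Extraction 9.5.1.1, which subtracts background with spatial detrending and puts surrogates in place of signals too dim to measure. The authors' value table matched them with a relative difference of 0 (45018 values per array, medians 83.2 for MEF2C-ASR and 85.8 for empty vector), with no centring.

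From log2 of the signals, the array's 75th percentile was subtracted, a signal of 1240.3 for MEF2C-ASR and 1272 for empty vector. Outlier spots on either array were left out, spots averaged per probe, and measured probes averaged per gene. Differences are MEF2C-ASR minus empty vector, with 2-fold as the size rule, counted only where measured probes have 1 sign. Names came from a RefSeq table of GRCm38.p6 (22951 of 41174 probes by accession, 6659 by symbol, 3109 by older symbol, 8455 by file name). The members, the 20 gene lists and the 9 marker lists were chosen with earlier results of these data known. Named in each list were up to 4 measured genes past 2-fold and up to 2 with such a bound, else the 2 brightest, and other names were chosen after their values were seen. The steps were tested on simulated data. Python 3.11.15, pandas 2.3.3, R 4.3.3 and limma 3.58.1 were used, and 11 alternatives were run. A few genes of the lists are not reported here.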

Additional observations from a re-analysis of the deposited data

How the results depend on the processing

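Cdkn1c and Igf2r stayed at least 2-fold lower, and no other member passed 2-fold, in all 11 alternatives. The alternatives that only choose among probes or spots could not move these 2 genes, since each rests on 1 bright, unflagged probe. These were all probes kept, the common floor, brighter probes alone, background-outlier spots left out and the brightest probe. In them Cdkn1c remained at -2.55 and Igf2r at -1.34, so they say nothing on how firm the values are. Scaling by spike-in spots gave Cdkn1c -2.70, Igf2r -1.49, H19 -0.24, Plagl1 -0.25 and a members' median of -0.87. Background correction by normexp with an offset of 50 gave Cdkn1c -2.10, with 161 genes higher and 122 lower. It was fitted without spots flagged for background, a setting chosen after seeing the data, because with all spots the fitted background mean of the empty vector array was -905, so the planned fit was not used. With all probes kept, Plagl1 was 0.82, the members' median -0.51, and 790 genes were higher and 980 lower. A common floor left 207 genes lower, and brighter probes alone gave a members' median of -1.95 with 109 genes lower and no value for H19 or Plagl1. Of 16 named values and medians past 2-fold, 9 stayed so wherever they had a value. The median of the maternally expressed members did not with all probes kept (-0.56). Under normexp Irs1 was -1.54 and the Lin28b bound -2.27. The bounds of the Meg3 and Grb10 probes, Airn, Asb4 and Phlda2 fell under 2-fold with the common floor (-0.61, -0.20, -0.70, -0.93 and -0.22) and with normexp (-0.54, -0.39, -0.83, -0.75 and -0.42). Those of Grb10 and Phlda2 also did so with the intensity trend removed (both -0.93). Phactr2 did so with spike-in scaling (0.99) and normexp (0.62), and Copg2 passed 2-fold with median scaling (1.01), the intensity trend removed (1.01) and its brightest probe (1.17). No paired analysis was possible because each group has 1 array. Negative control spots had an SD of 3.08 with MEF2C-ASR and 15.5 with empty vector, which limits what dim probes can show.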

Other observations

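Markers of other cell types were mixed in direction, and many of them were dim. Of 8 stem and progenitor markers 6 were measured with a median of 0.11, among them Kit at 0.52 and Hoxa9 at -0.09, and their summed signal was 13482 with MEF2C-ASR and 12953 with empty vector. Procr, a receptor on stem cells, had 106 with MEF2C-ASR against 31.3 with empty vector, not well above background there, a bound of at least 1.51 on the log2 scale. Of 6 endothelial markers, Cdh5, Kdr, Tie1 and Emcn were on neither array, and Pecam1 and Tek differed by -0.22 and -0.08. The erythroid markers had a median of -0.11, with Klf1 at -0.96 and Hba-a1 at -0.05. Mast cell markers had a median of -0.17 with Mcpt8 at -0.17, Tpsb2 at -0.85 and Cpa3 on neither array.

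In the B lineage list Cd79a had 119 with MEF2C-ASR and 55.3 with empty vector, a difference of 1.15, while Ebf1 was on neither array. In the T and NK list Zap70 had 54.9 with MEF2C-ASR and 177 with empty vector, a difference of -1.65, while Cd3g and Ncr1 were on neither array. Afp, a fetal liver gene, had 9672 with MEF2C-ASR and 5426 with empty vector, while Alb and Ttr were on neither array. No explanation for these values was tested.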
